A study of Mus musculus with 4 samples.

Results

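Pausing of RNA polymerase II shortly after initiation is a regulated step in animal transcription. After the polymerase has left the promoter, DSIF (Supt4a and Supt5) and NELF (Nelfa, Nelfb, Nelfcd and Nelfe) hold it a short distance downstream. The kinase P-TEFb (Cdk9 with Ccnt1 or Ccnt2) phosphorylates both factors and the carboxy-terminal domain (CTD) of the polymerase, upon which NELF leaves and the polymerase moves into the gene body. Mediator connects activators with the polymerase at the promoter, and the 7SK particle keeps part of the P-TEFb pool inactive through Hexim1. The genes that encode this machinery are themselves transcribed by RNA polymerase II, and they are described here by their own reads in nascent RNA of mouse liver.

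The module held 68 of the 20642 gene symbols in the table. Its members were chosen by name. They were all Mediator subunits with a numbered symbol, the RNA polymerase II subunits Polr2a to Polr2m, and a fixed list of pausing and elongation genes. The table listed 60 of them under these symbols, and 8 others, such as *Nelfa* as *Whsc2* and *Supt5* as *Supt5h*, were found under an older symbol through the RefSeq accession of their transcript. They fell into 13 polymerase subunits, 31 Mediator genes (12 of the head, 9 of the middle and scaffold, 5 of the tail and 5 of the kinase module) and 24 pausing and elongation genes. The latter were the 6 genes of DSIF and NELF, 5 of P-TEFb and 7SK, 4 each of the super elongation complex and the PAF complex, 3 histone chaperones and 2 further CTD kinases.

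PRO-seq (precision nuclear run-on sequencing) reads the RNA that engaged polymerases extend in isolated nuclei. The analysis used 4 libraries, 2 from WT livers (WT1, WT2) and 2 from *Hdac3* KO livers (KO1, KO2), each made from the pooled nuclei of several C57BL/6 mice, taken on postnatal day 14. Every mouse carried the Alb-Cre transgene, in which the albumin promoter drives Cre, with *Hdac3* +/+ alleles in WT and fl/- or fl/fl alleles in KO, so that hepatocytes were the cells in which HDAC3, a histone deacetylase, was to be lost. The comparison asks how polymerase at promoters and in gene bodies differed after the deletion. Because mice were pooled, p-values cannot measure the spread between single mice. An exact permutation of 2 against 2 libraries cannot give a two-sided p below 0.333.

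The promoter-proximal value of a gene is the read number of the fullest 50 bp window near its transcription start site, and the gene body value is the number from 1 kb downstream of the start to the end of the transcript. Both are normalized reads, the counts of the authors multiplied by a scaling factor per library. The pausing index is the ratio of the read densities of the 2 regions. A gene was active when it had promoter-proximal reads and over 4 normalized reads per kb of gene body. Changes are log2 fold changes of KO over WT on log2(value + 1), which understates the change of genes with few reads. They were fitted with limma across all 12705 active genes, and SE is the standard error of a change. A change was called when its Benjamini-Hochberg adjusted p was under 0.05 and its size over 0.6 in either direction. Values of single libraries are always given in the order WT1 and WT2, then KO1 and KO2.

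The libraries held between 16628518 reads on genes (KO2) and 26190040 (WT2). Promoter-proximal windows took 9.38% to 10.3% of these reads in WT and 13.6% to 17.0% in KO, and across all active genes the median promoter-proximal change was 0.56, against -0.09 in gene bodies. For *Polr2b* and *Ell2* the promoter-proximal change is therefore also given relative to this median. The promoter-proximal changes of all other genes are printed without subtracting it. The gene body reads of *Hdac3*, counted over the whole gene, did not fall past the threshold (-0.14, adjusted p = 0.413). They cannot show the loss of a floxed part, so the genotypes rest on the labels. The hepatocyte markers were abundant, with 250199 and 247526 summed gene body reads in WT, but 5 of 7 active hepatocyte markers were called down in KO gene bodies (119870 and 114688 summed reads). All 8 stellate cell and 5 of 7 endothelial cell markers were called up (summed reads of 9679 to 10983 in WT against 19831 to 21586 in KO for stellate cells, and of 60042 to 65469 against 103700 to 115939 for endothelial cells). Of 4 active erythroid markers, 3 were called down (395.8 and 477 summed reads in WT against 173 and 146 in KO), as was 1 of 3 active cholangiocyte markers. None of the 7 active Kupffer cell and leukocyte markers was called in limma. Fewer cells of a type and less RNA per cell cannot be told apart here, and the part of these shifts in the changes below was not tested.

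The sequence before a RefSeq start of 5 members is shown because the results below turn on them. *Polr2b* had the largest promoter-proximal rise and *Ell2* the largest gene body fall in the module, *Hexim1* had the most promoter-proximal reads, *Leo1* fell most in the gene body within the PAF complex, and *Polr2a* encodes the largest polymerase subunit. The stretches come from RefSeq promoter windows on GRCm38.p6, are written in the direction of the gene, and end at or before the RefSeq start, which can differ from the start of the transcript in the table. Capitals mark matches to a GC box, a TATA box, a CCAAT box or an NRF1 site on either strand, with the letters given for each below. The stretches of *Ell2* and *Polr2b* are the last 30 bases before the start. The stretch of *Leo1* precedes a start that lies inside the gene as positioned below (75441015 to 75466432), so it is not upstream of that whole span.
*Polr2a*, chr11:69758638-69758787, minus strand: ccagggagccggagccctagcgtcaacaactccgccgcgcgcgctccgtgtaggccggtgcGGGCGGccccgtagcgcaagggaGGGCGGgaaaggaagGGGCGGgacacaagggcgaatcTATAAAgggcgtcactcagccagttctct
*Polr2b*, chr5:77310454-77310483, plus strand: ggcgcaagcctcacaccCCGCCCcctcgct
*Hexim1*, chr11:103116081-103116230, plus strand: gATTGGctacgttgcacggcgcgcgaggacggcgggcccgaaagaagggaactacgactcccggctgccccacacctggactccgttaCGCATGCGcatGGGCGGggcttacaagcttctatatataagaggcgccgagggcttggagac
*Ell2*, chr13:75707454-75707483, plus strand: aGGGCGGggtgcgggctcgagggtggggcg
*Leo1*, chr9:75441374-75441523, plus strand: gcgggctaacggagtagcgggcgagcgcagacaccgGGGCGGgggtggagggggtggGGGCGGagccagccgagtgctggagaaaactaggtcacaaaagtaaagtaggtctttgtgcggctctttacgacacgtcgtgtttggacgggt

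In *Polr2a* the TATA box begins 33 bases before the start, with 3 GC boxes upstream of it. *Hexim1* holds overlapping NRF1 matches on both strands, so that 1 palindromic stretch gives both. Promoter windows from 250 bases before to 50 after the start were available for 58 of the 68 members. A GC box, with the letters GGGCGG, was found in 45 of these (77.6%), against 38.2% of all 27025 genes with a window. The ETS site CCGGAAG was found in 27.6% against 9.93%, the YY1 site AAGATGG in 15.5% against 7.28%, the NRF1 site GCATGCG in 10.3% against 4.01% and the E-box CACGTG in 13.8% against 8.09%. The TATA box, TATAAA, was less frequent than among all genes (10.3% against 15.7%), and so was the CCAAT box, of which only those 5 letters were searched (34.5% against 41.1%). Module windows were also richer in G and C, with a median of 61.3% against 52.7%. All genes with a window include inactive genes, while nearly all members were active, and the shares among active genes alone were not counted. These values thus cannot set the module apart from other active genes. These are shares of letters on either strand and do not show binding.

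Members differed widely in level. Of the 68 members, 67 were active. The exception was *Med12l*, a paralog of *Med12*, with 3.83 normalized reads per kb of gene body in WT. In WT the median gene body density of the 67 was 46.7 normalized reads per kb, against 37.7 over all active genes, and the median promoter-proximal value was 165 against 92.1 normalized reads. The median pausing index was 65.3 against 47.8. Densities ran from 11.1 per kb in *Med30* to 188 in *Hexim1*, apart from *Cdk8*, which stood at 952. Pausing indices covered a wider range, from 2.41 in *Med29* to 484 in *Hexim1*, followed by *Cdk12* (463), *Larp7* (446) and *Polr2j* (427).

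**Figure D1:**
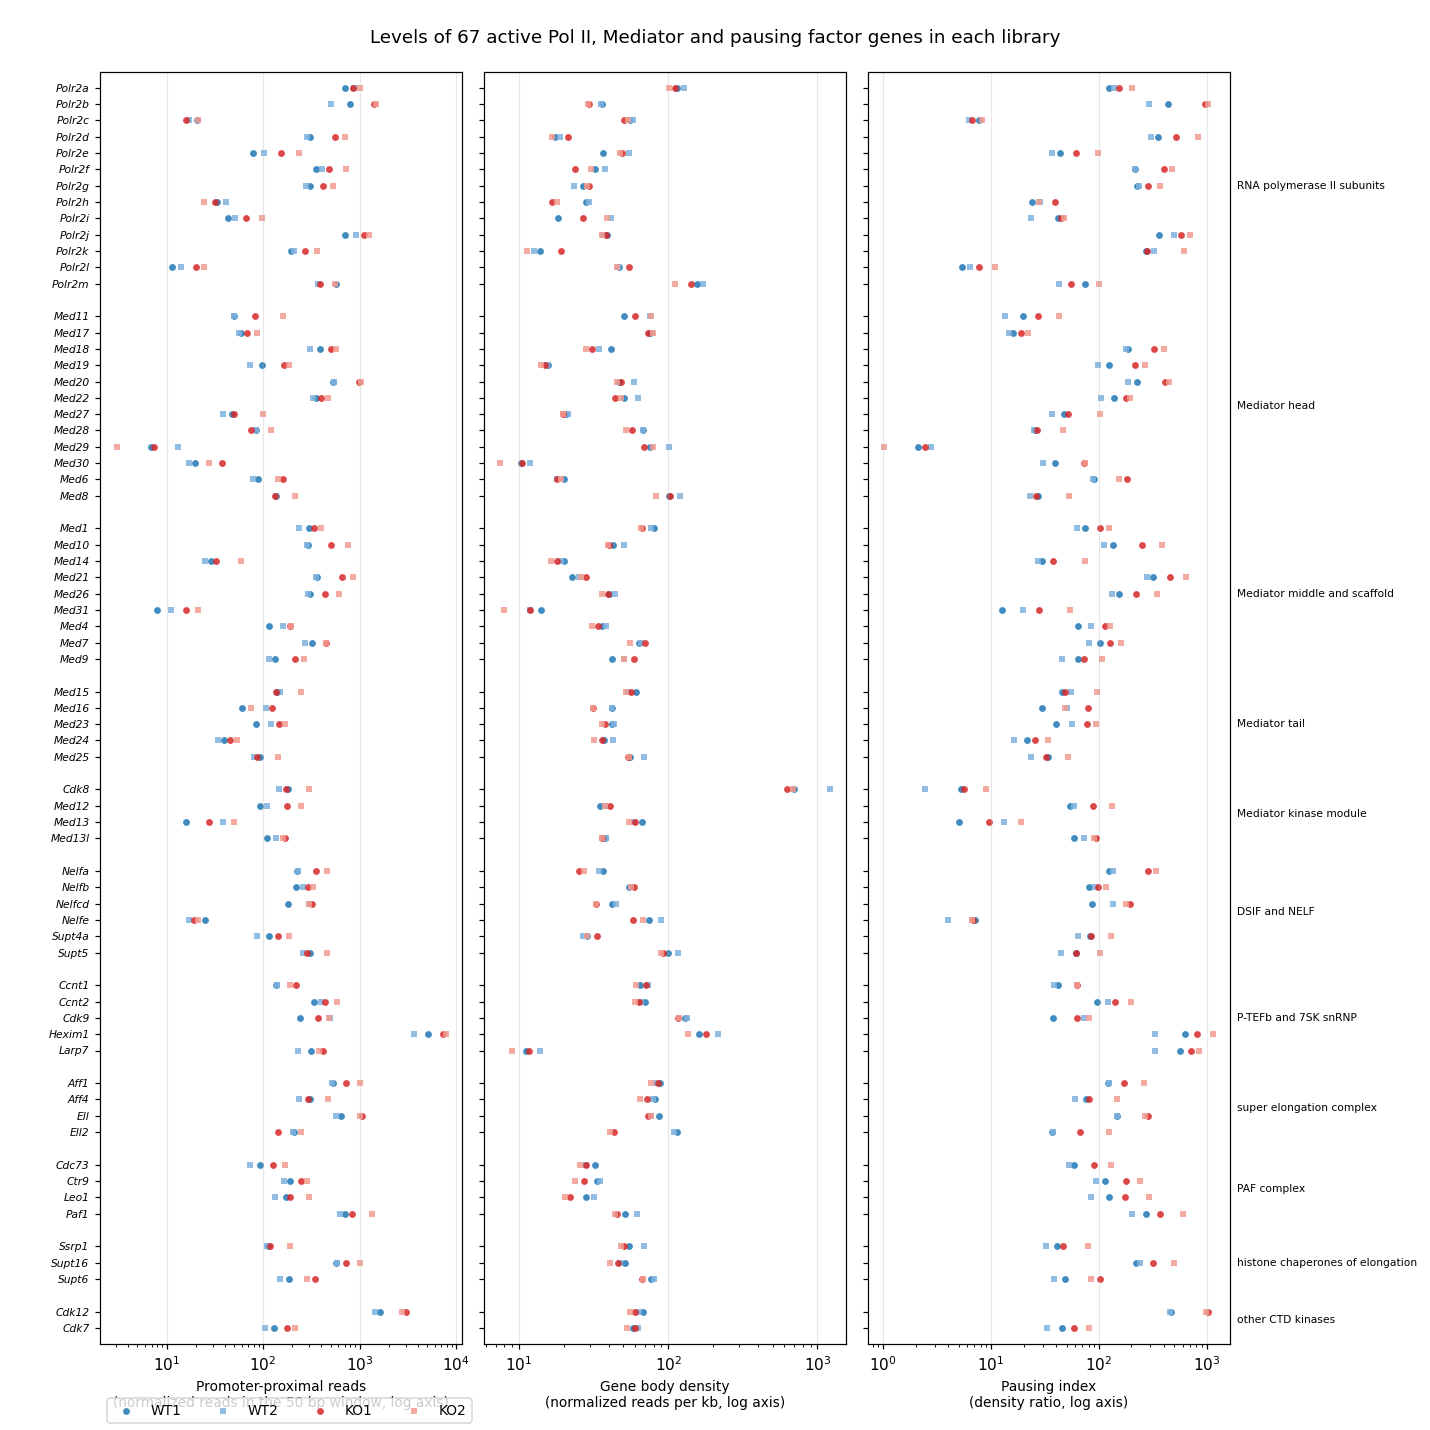
Normalized promoter-proximal reads, gene body density per kb and pausing index (x axes, log scale) of the 67 active members (rows, grouped by complex) in WT1, WT2 (blue) and KO1, KO2 (red). Gene body densities mostly lie between 11.1 and 188 normalized reads per kb in WT, with *Cdk8* at 952, while promoter-proximal reads of most members lie further right in KO.

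At promoters, most members had more reads in KO, as did most active genes. Of the 67 members, 17 (25.4%) were called up, close to the 25.8% of all active genes that were called up, and no member was called down in limma, edgeR or DESeq2, where 2.20% of active genes were in limma. At an unadjusted p under 0.05, limma gave 32 of 67 members up and 0 down, against 5067 and 446 of the 12705 active genes. The median log2 fold change was 0.62, against 0.56 over all active genes. Changes were above 0 in 62 of 67 members and in 10695 of 12705 active genes. In 49 members (73.1%) both KO libraries lay above both WT libraries, against 61.9% of active genes, and in 1 both lay below, against 6.72%. The median member ratio was 0.46 for KO1 over WT1 and 0.41 for KO1 over WT2 on the log2 scale, but 0.77 and 0.81 for KO2 over the same libraries, and KO2 over KO1 gave 0.35. When the promoter-proximal values were scaled on their own, by median of ratios or TMM, the typical gene was set near 0, the 17 rises were no longer called and the median was 0.050, while the share of active genes called up fell to 4.99% and 5.02%. Without KO2 or without WT2 none of the members was called (2.51% and 3.88% of active genes), 1 was called without WT1 (1.49%, against 5.53%), and 20 were called without KO1 (29.9%, against 27.7%). These counts moved with those of all active genes.

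In gene bodies the members hardly rose. None was called up by limma, edgeR or DESeq2, while 10.4% of active genes were called up in limma. At an unadjusted p under 0.05 none was up either, against 2504 of the 12705 active genes in limma. Only *Ell2* and *Polr2h* were called down (2.99% of members, against 11.4% of active genes). At the adjusted p alone, with no threshold on the fold change, 9 members (13.4%) were down, against 22.1% of active genes, and none was up, against 17.0%. The median change was -0.19, and -0.10 relative to all active genes. The 3 members with both KO libraries above both WT libraries were *Med21*, *Polr2g* and *Supt4a* (4.48%, against 27.6% of active genes), and 38 members (56.7%) had both below, against 42.8%.

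The pausing index of 13 members (19.4%) was called up, against 12.4% of active genes, and none was called down by limma (0.519% of active genes). At an unadjusted p under 0.05, limma gave 34 members up and 0 down, against 4334 and 145 of the 12705 active genes. The median change of the pausing index was 0.78, and 0.17 above that of all active genes. It was above 0 in 66 of 67 members, the exception being *Med29*, and in 11287 of 12705 active genes. In 55 members (82.1%) both KO libraries lay above both WT libraries, against 62.8% of active genes, and no member had both below, against 3.49%. In WT the median pausing index was 65.3 and in KO it was 107. The 2 sets of calls shared 9 members, which were 9 of the 17 promoter-proximal rises and 9 of the 13 rises of the pausing index. The 2 measures use the same promoter-proximal reads. The other 4, *Ell2*, *Leo1*, *Med31* and *Polr2f*, were called in the pausing index alone. Scaling within each region left no member called, with a median of 0.13, and few active genes (0.0472% up for median of ratios and 0.0630% for TMM). Without WT1 or without WT2 no member was called either (0.323% and 0.228% of active genes), 1 was called without KO2 (1.49%, against 3.12%) and 39 without KO1 (58.2%, against 41.4%). Gains and losses of calls thus ran through the whole table.

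**Figure D2:**
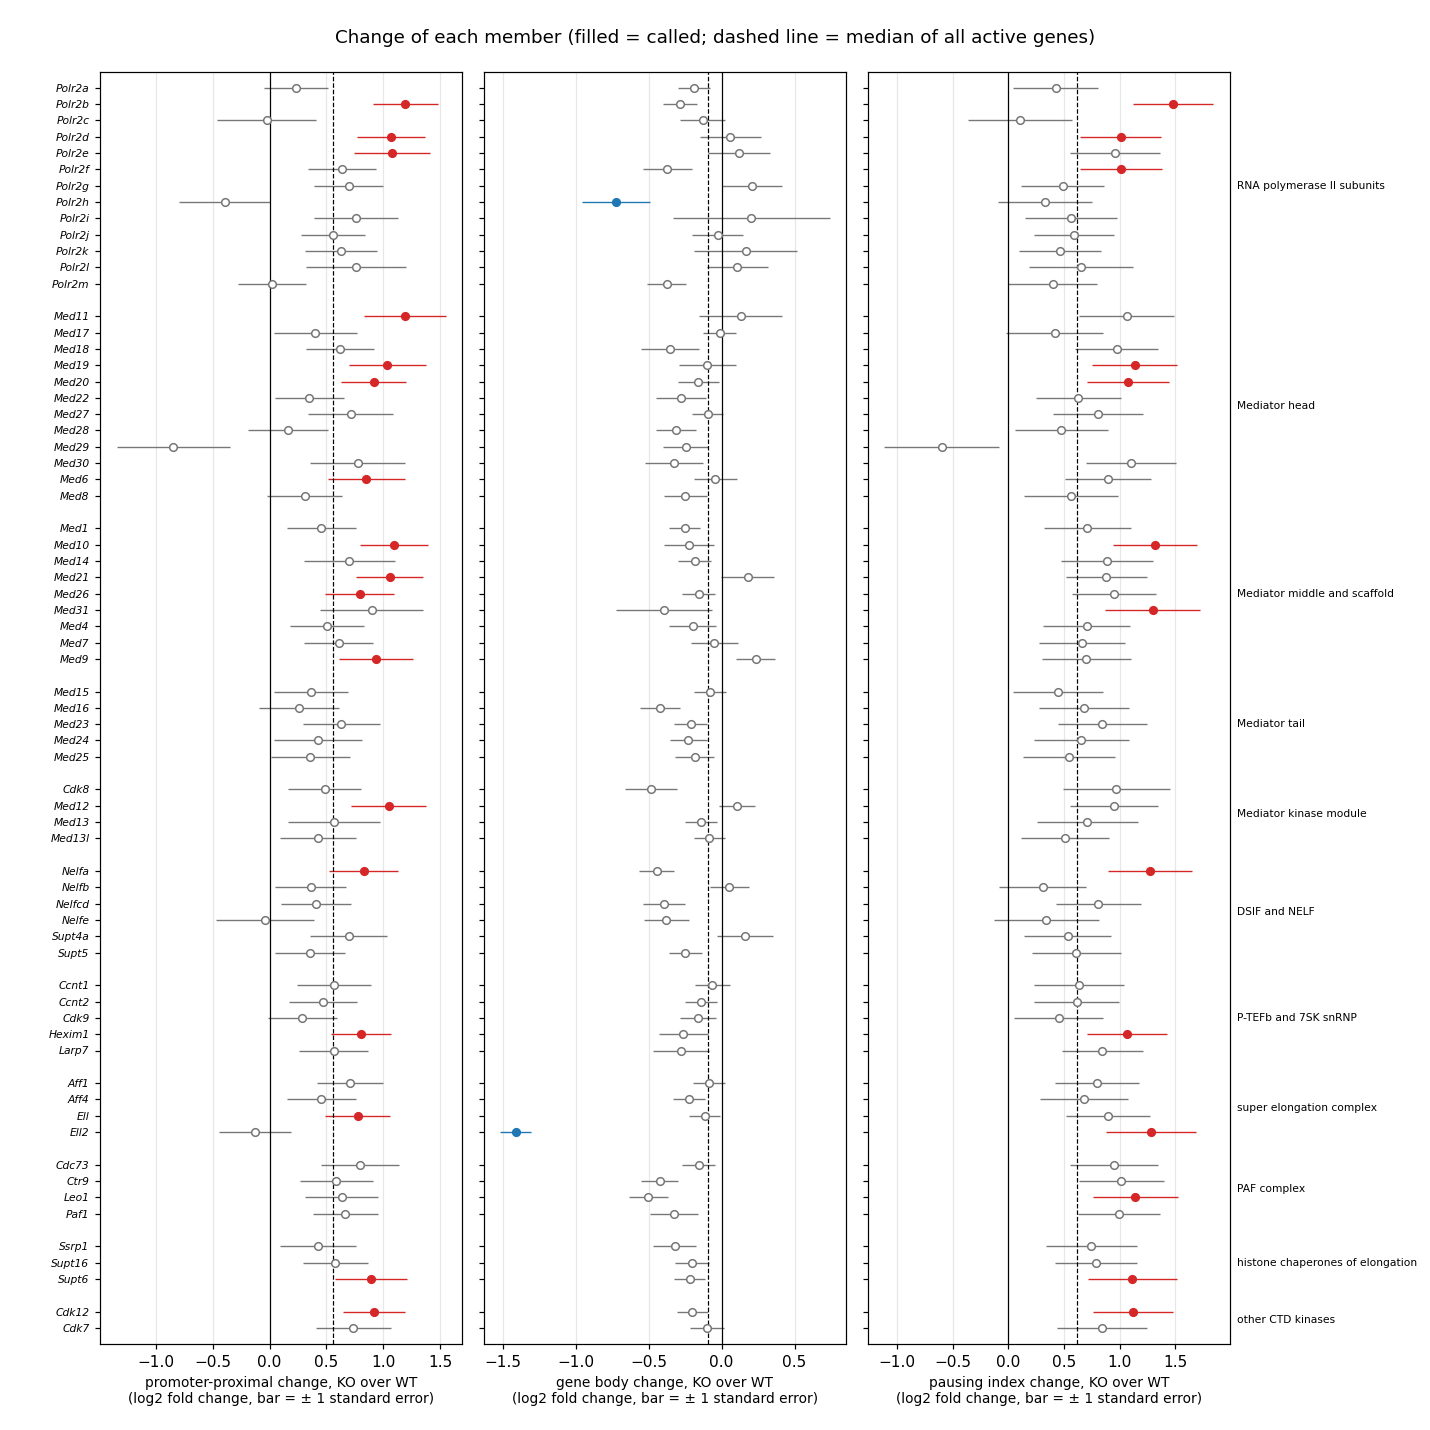
Log2 fold change of KO over WT (x axes) in the promoter-proximal region, the gene body and the pausing index of each active member (rows), with bars of 1 standard error. Filled symbols are called (red up, blue down), and the dashed lines give the medians of all active genes, 0.56, -0.09 and 0.61. The 17 promoter-proximal rises are spread over most complexes, with none in the Mediator tail or the PAF complex. The 2 gene body falls are *Polr2h* and *Ell2*.

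None of the 17 members with a promoter-proximal rise had a called change in its gene body. Among all active genes, 897 of the 3282 with a promoter-proximal rise were up in the gene body too (7.06% of active genes) and 30 were down there. The plot of the 2 changes against each other shows the members in a compact cloud above 0 on the promoter-proximal axis and close to 0 on the gene body axis, with *Ell2* apart.

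**Figure D3:**
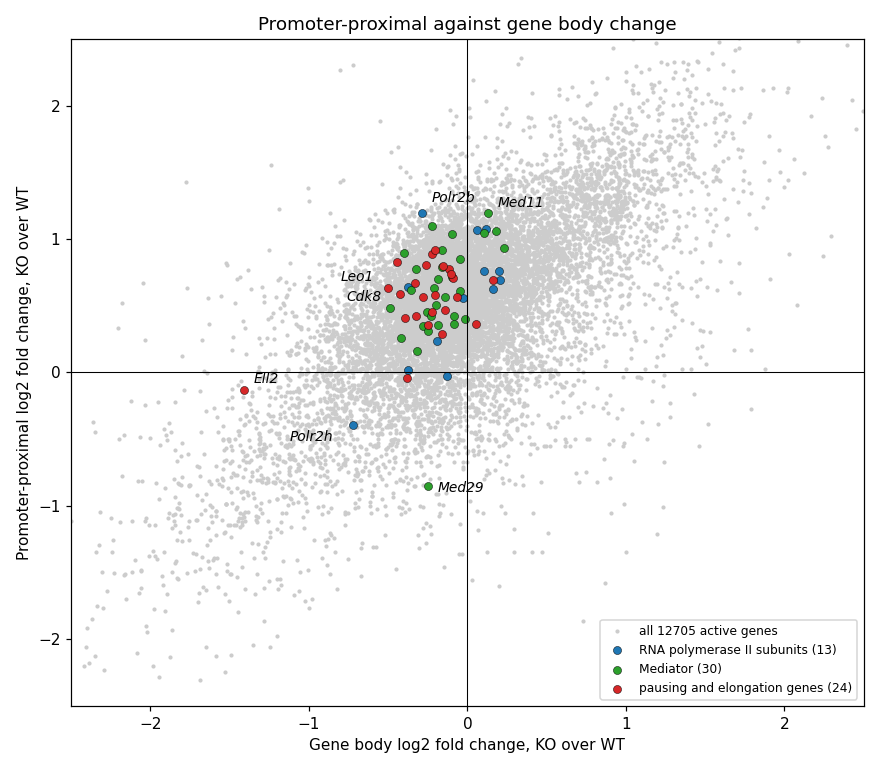
Promoter-proximal against gene body log2 fold change (KO over WT) of all 12705 active genes (gray, 57 of them beyond the plotted range of 2.5 in either direction) and of the members, colored as polymerase subunits, Mediator or pausing and elongation genes. Members lie mostly between 0 and 1.20 on the vertical axis and near -0.19 on the horizontal one, and *Ell2* lies at -1.41 on the latter.

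Among the 13 polymerase subunits, 3 (23.1%, against 25.8% of active genes) were called up at the promoter. In the gene body 1 was called down (7.69%, against 11.4%), and in the pausing index 3 were called up (23.1%, against 12.4%). *Polr2a* encodes the largest subunit, which carries the CTD. Its promoter held 712 and 877 in WT and 849 and 1017 in KO normalized reads, and its gene body 2623 and 2901 in WT and 2549 and 2294 in KO. The 2 groups overlapped at the promoter, while both gene body values of KO lay below those of WT, and neither change was called (0.23, adjusted p = 0.521 and -0.19, adjusted p = 0.187).

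*Polr2b* (chromosome 5, 77310484 to 77349328), the second largest subunit, had the largest promoter-proximal and pausing index changes of the module. Its promoter held 785 and 509 in WT and 1414 and 1485 in KO normalized reads. Both KO values were well above both WT values, though the WT libraries also differed from each other. The log2 fold change was 1.20 (SE 0.28, limma adjusted p = 0.000508), or 0.64 relative to the active gene median, and 9.40% of active genes had a larger one. In the gene body it had 1354 and 1337 in WT and 1115 and 1095 in KO normalized reads, and the fall was small and not called (-0.28, adjusted p = 0.0543). Its pausing index was 439 and 289 in WT and 959.8 and 1026 in KO, a change of 1.48 (SE 0.36, limma adjusted p = 0.00331), and 2.04% of active genes had a larger one. GENCODE annotates Gm42758 overlapping *Polr2b* on the same strand, which could share its reads. With scaling within each region the promoter-proximal change was 0.62 and the pausing index change 0.83, neither called. Without WT2 the 2 changes were 0.88 and 1.18 and not called, and without KO2 the promoter-proximal change of 1.16 was not called.

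*Polr2d* and *Polr2e* were called up at the promoter as well. *Polr2d*, which encodes a subunit of the stalk, had 307 and 288 in WT and 558 and 698 in KO normalized promoter-proximal reads (1.07, adjusted p = 0.00399) and a pausing index of 351 and 304 in WT and 521 and 828 in KO (1.01, adjusted p = 0.0468). *Polr2e*, a subunit shared by all nuclear RNA polymerases, had 79.2 and 101 in WT and 152 and 237 in KO reads (1.08, adjusted p = 0.0102). In both genes the lower KO library was above the higher WT library. The pausing index of *Polr2f*, another shared subunit, was 217 and 217 in WT and 406 and 472 in KO, again without overlap (1.01, adjusted p = 0.0489), while its promoter-proximal change of 0.64 was not called.

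*Polr2h* (chromosome 16, 20717826 to 20722272), also a subunit of all nuclear RNA polymerases, was the polymerase gene that fell. Its gene body held 97.5 and 101 in WT and 57.3 and 62.3 in KO normalized reads. The KO values stood clear below the WT values, at -0.72 (SE 0.23, limma adjusted p = 0.0162). It was also the single member with both KO libraries below both WT libraries at the promoter, with 33.3 and 41 in WT and 31.8 and 24.3 in KO reads, a change that was not called (-0.40, adjusted p = 0.437), so that its pausing index moved little (0.33). The gene body call was lost without KO1 (adjusted p = 0.107), without KO2 (0.0705), in DESeq2 (0.0774) and with no filter on activity (0.0851), while over all alternatives the adjusted p ran from 0.0119 to 0.107 and the change from -0.78 to -0.64.

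*Polr2m*, which encodes the Pol II-associated protein Gdown1, held 574 and 368 in WT and 391 and 554 in KO normalized reads at its promoter. The groups overlapped fully. In the gene body it had 1023 and 1122 in WT and 936 and 727 in KO reads (-0.38, adjusted p = 0.0273), below WT in both KO libraries but short of the fold threshold. The other 6 polymerase genes were not called in any measure. Their promoter-proximal changes ran from -0.03 in *Polr2c* to 0.76 in *Polr2i* and *Polr2l*, and their gene body changes from -0.13 to 0.21.

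Of the 30 active Mediator genes, 9 were called up at the promoter (30.0%, against 25.8% of active genes) and 4 in the pausing index (13.3%, against 12.4%). None was called in the gene body in either direction by limma, edgeR or DESeq2. At an unadjusted p under 0.05 in limma, 4 were down there, against 3425 of the 12705 active genes. Calls at the promoter fell on 4 of 12 head genes, 4 of 9 middle and scaffold genes, 1 of 4 active kinase module genes and none of the 5 tail genes, where limma also gave none at an unadjusted p under 0.05. The median promoter-proximal change was 0.67 in the head, 0.79 in the middle and scaffold, 0.36 in the tail and 0.53 in the kinase module. The difference between these parts of Mediator was not tested.

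In the head, which contacts the polymerase, *Med11* changed most. It had 50.5 and 50 in WT and 82.7 and 162 in KO normalized promoter-proximal reads, with KO2 far above the other libraries (1.19, adjusted p = 0.00770). *Med20* had 531 and 541 in WT and 995 and 1031 in KO reads, with close replicates and a clear gap between the groups (0.92, adjusted p = 0.0105). Its pausing index, 227 and 184 in WT and 412 and 451 in KO, also rose (1.08, adjusted p = 0.0377), although a readthrough transcript annotated on the same strand, Gm20517, could share its reads. *Med19* had a pausing index of 123 and 97.2 in WT and 217 and 265 in KO (1.13, adjusted p = 0.0342), and *Med6* was the fourth head gene called at the promoter, at 0.85. *Med29* stood apart with few promoter-proximal reads, 6.88 and 13 in WT and 7.43 and 3.04 in KO, and a change of -0.85 that was not called (adjusted p = 0.171). The 7 other head genes had promoter-proximal changes from 0.16 to 0.77.

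*Med14*, the scaffold that joins the parts of Mediator, was transcribed at 19.5 normalized reads per kb of gene body in WT. It had 28.7 and 25 in WT and 32.9 and 59.2 in KO normalized reads at the promoter and 1719 and 1627 in WT and 1549.8 and 1395 in KO in the gene body. KO lay above WT in the former and below it in the latter, and neither change was called (0.70, adjusted p = 0.158 and -0.19, adjusted p = 0.211). *Med1*, the subunit that nuclear receptors bind, had 302 and 237 in WT and 336 and 401 in KO and 3247 and 3066 in WT and 2668 and 2629.7 in KO normalized reads in the 2 regions and showed the same order, again with no call (0.46, adjusted p = 0.235 and -0.25, adjusted p = 0.0661).

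In the middle, *Med10* and *Med21* were called at the promoter with more than 1 unit of change. *Med10* had 291 and 285 in WT and 501 and 762 in KO reads (1.10, adjusted p = 0.00311) and a pausing index of 136 and 113 in WT and 249 and 383 in KO (1.32, adjusted p = 0.0135). *Med21* had 358 and 351 in WT and 648 and 843 in KO reads (1.06, adjusted p = 0.00380). Within both genes the WT libraries were nearly equal and both KO libraries stood above them. *Med9* (0.93) and *Med26* (0.79), a subunit that recruits elongation factors, were called too. The pausing index of *Med31*, 12.6 and 19.7 in WT and 27.8 and 53.7 in KO, was called up (1.30, adjusted p = 0.0314), on only 8.03 to 21.3 promoter-proximal and 22.8 to 40.2 gene body reads per library.

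No gene of the tail, the part through which many activators reach Mediator, was called. *Med23* had 83.8 and 120 in WT and 145 and 167 in KO promoter-proximal reads (0.63, adjusted p = 0.134) and 1785 and 1844 in WT and 1606 and 1527 in KO gene body reads (-0.21, adjusted p = 0.139). The KO libraries lay outside the range of WT in both. *Med16* had lower gene body reads at the adjusted p alone, at -0.42, adjusted p = 0.0169.

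The kinase module associates with Mediator reversibly and restrains its contact with the polymerase. *Med12*, which activates the kinase, rose at the promoter, with 92.9 and 110 in WT and 178 and 247 in KO reads (1.05, adjusted p = 0.0114). *Med13* and *Med13l*, which link the module to Mediator, did not pass the test. *Med13* had 16.1 and 38 in WT and 27.6 and 50.1 in KO promoter-proximal reads, a low number with overlapping groups (0.57, adjusted p = 0.263). *Med13l* had 110.1 and 137 in WT and 169.7 and 161 in KO reads, without overlap (0.43, adjusted p = 0.308). Their gene bodies changed little, by -0.14 and -0.08. The inactive *Med12l* held 1136 and 1242 in WT and 919.7 and 858 in KO gene body reads and was not tested.

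*Cdk8* (chromosome 5, 146230795 to 146302874), the kinase itself, carried more gene body reads per kb than any other member. Its gene body held 48979.6 and 84611 in WT and 44102 and 47945 in KO normalized reads. WT2 stood far above the other 3 libraries, and WT1 was close to the KO libraries. The change of -0.49, adjusted p = 0.0335 did not reach the fold threshold and rested on WT2. Without WT1 it was -0.88 and called, and without WT2 it was -0.09. At the promoter *Cdk8* had 182 and 147 in WT and 174 and 302 in KO reads, with overlapping groups (0.48, adjusted p = 0.229). Given its many gene body reads, its pausing index was among the lowest of the module. The index was 5.26 and 2.46 in WT and 5.57 and 8.88 in KO, a change of 0.97 that was not called. GENCODE annotates a further transcript, Gm15739, within the *Cdk8* body on the same strand. The table does not show where in the body the reads lay.

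**Figure D4:**
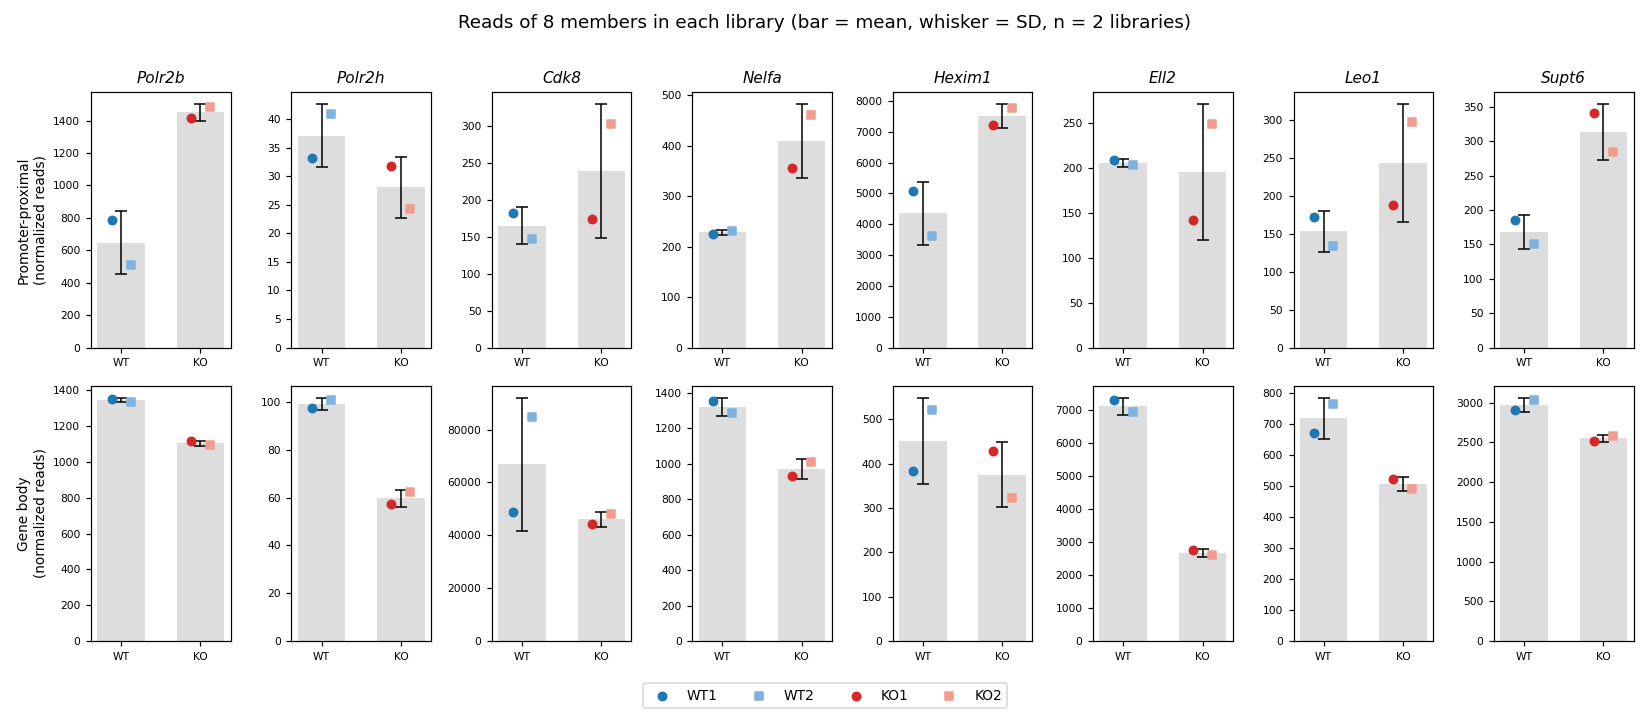
Normalized promoter-proximal reads (top) and gene body reads (bottom) of 8 members in WT1, WT2, KO1 and KO2 (points), with the mean (bar) and SD (whisker) of 2 libraries. *Polr2b*, *Nelfa*, *Hexim1* and *Supt6* are higher in KO at the promoter, *Ell2* and *Polr2h* are lower in the gene body, and WT2 stands alone in *Cdk8*.

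Of the 6 genes of DSIF and NELF, 1 was called at the promoter (16.7%, against 25.8% of active genes). This was *Nelfa* (chromosome 5, 33897916 to 33936301), with 225 and 231 in WT and 356 and 460.0 in KO normalized reads. The WT libraries nearly coincided and both KO libraries lay above, at 0.83 (SE 0.31, limma adjusted p = 0.0318). In the gene body the order was opposite, with 1355 and 1284 in WT and 930.3 and 1008 in KO reads and a change of -0.45, adjusted p = 0.00411, below the fold threshold. The pausing index was 124 and 134 in WT and 285 and 339 in KO, a change of 1.27, adjusted p = 0.0167. *Nelfa* was the single member with both a promoter-proximal call and a lower gene body at the adjusted p alone.

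The other subunits were not called at the promoter. *Nelfb* had 221 and 259 in WT and 292 and 325 in KO promoter-proximal reads, with a small gap between the groups (0.36, adjusted p = 0.356), and overlapping gene body reads of 586 and 611 in WT and 639 and 604 in KO (0.05). *Nelfe*, the RNA-binding subunit, had only 25.2 and 17 in WT and 19.1 and 21.3 in KO promoter-proximal reads. Its gene body held 371 and 448 in WT and 292 and 336 in KO, lower in KO without a call (-0.38, adjusted p = 0.0565). *Nelfcd* was lower in the gene body at the adjusted p alone (-0.40, adjusted p = 0.0308). *Supt5*, the DSIF subunit that binds the polymerase clamp, had 306 and 260 in WT and 283 and 462 in KO promoter-proximal and 2289 and 2664 in WT and 2104 and 2048 in KO gene body reads, with overlap at the promoter only and no call (0.36, adjusted p = 0.355 and -0.25, adjusted p = 0.0834).

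Among P-TEFb and 7SK genes, *Hexim1* (chromosome 11, 103116325 to 103119725), the inhibitor of P-TEFb, was called. It had 5074 and 3630 in WT and 7233 and 7778 in KO normalized promoter-proximal reads, the most in the module. KO exceeded WT in both libraries, at 0.81 (SE 0.26, limma adjusted p = 0.0139). Its short gene body held 383 and 520 in WT and 428 and 323 in KO reads, with overlapping groups (-0.26, adjusted p = 0.226), and the pausing index of 634 and 335 in WT and 810.3 and 1151 in KO rose (1.07, adjusted p = 0.0347).

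The kinase *Cdk9* did not pass. It had 241 and 491 in WT and 367 and 481 in KO promoter-proximal reads, of which WT2 was the highest (0.29, adjusted p = 0.451), and 772 and 807 in WT and 701 and 709 in KO gene body reads (-0.16, adjusted p = 0.322). Its cyclins *Ccnt1*, with 135 and 139 in WT and 221 and 188 in KO promoter-proximal reads, and *Ccnt2*, with 336 and 400 in WT and 441 and 585 in KO, were higher in both KO libraries, again without a call (0.57, adjusted p = 0.163 and 0.47, adjusted p = 0.208). *Larp7*, which stabilizes the 7SK RNA, had 314 and 229 in WT and 419 and 377 in KO reads (0.56, adjusted p = 0.138). No gene of this group was called in the gene body by limma, edgeR or DESeq2, nor was any past an unadjusted p of 0.05 in limma.

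The super elongation complex held the largest gene body change of the module. *Ell2* (chromosome 13, 75707484 to 75772361) encodes an elongation factor of this complex that raises the rate of the polymerase. Its gene body held 7299 and 6938 in WT and 2760.2 and 2596 in KO normalized reads. Replicates were close, and both KO libraries lay far below both WT libraries. GENCODE annotates Gm48302 and Gm23127 overlapping *Ell2* on the same strand, and these could share its reads. The log2 fold change was -1.41 (SE 0.11, limma adjusted p = 4.49e-10), and 2.35% of active genes had a lower one. It was called under every alternative tried, with changes from -1.45 to -1.33 and an adjusted p of at most 0.0318. At the promoter *Ell2* had 209 and 203 in WT and 142 and 249 in KO reads. Here KO1 was the lowest and KO2 the highest library, so that the groups overlapped and no change was detected (-0.13, adjusted p = 0.762). Relative to the median of active genes the value was -0.69, and under scaling within the region it was -0.70 and called down. The pausing index, 36.7 and 37.6 in WT and 66.2 and 123 in KO, was called up (1.28, adjusted p = 0.0244). Without KO2 this change was 0.83, with scaling within each region 0.63, neither called, and the call was also lost without WT1 and without WT2.

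The other genes of the complex had no called gene body change. *Ell*, the paralog of *Ell2*, had 643 and 566 in WT and 1048 and 1017 in KO promoter-proximal reads (0.77, adjusted p = 0.0302) and 4524 and 3985 in WT and 3827 and 4002 in KO gene body reads (-0.12, adjusted p = 0.421). It was called up at the promoter, without overlap, and its gene body groups overlapped. The difference between the paralogs was not tested. *Aff1* and *Aff4*, the scaffolds of the complex, had 534 and 514 in WT and 729 and 1007 in KO and 307 and 236 in WT and 291 and 471 in KO promoter-proximal reads (0.71, adjusted p = 0.0504 and 0.46, adjusted p = 0.234). *Aff1* missed the threshold narrowly, and edgeR and DESeq2 called it up at 0.73. Their gene body changes were -0.09 and -0.22.

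The PAF complex travels with the elongating polymerase. All 4 of its genes had both KO libraries above both WT libraries in the promoter-proximal region, as had 61.9% of active genes. The same order held for all 4 in the pausing index, as for 62.8% of active genes. Only *Leo1* was called, in the pausing index. *Leo1* (chromosome 9, 75441015 to 75466432) had a pausing index of 123 and 84.4 in WT and 173 and 291 in KO (1.14, adjusted p = 0.0342), from 172 and 134 in WT and 188 and 298 in KO promoter-proximal and 671 and 764 in WT and 522 and 489 in KO gene body reads. The gene body was lower in KO at the adjusted p alone (-0.50, adjusted p = 0.00425), as was that of *Ctr9* (-0.43, adjusted p = 0.00995). *Paf1* had 699.9 and 628 in WT and 834 and 1332 in KO promoter-proximal and 275 and 335 in WT and 245 and 238 in KO gene body reads (0.67, adjusted p = 0.0610 and -0.33, adjusted p = 0.118). *Cdc73* had 92.9 and 74 in WT and 125 and 167 in KO and 3027 and 2657 in WT and 2662 and 2431 in KO (0.79, adjusted p = 0.0641 and -0.16, adjusted p = 0.284). In *Cdc73* the gene body groups overlapped. In the other 3 genes both KO libraries lay below both WT libraries, as in 42.8% of active genes.

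Histone chaperones move nucleosomes aside for the polymerase and restore them behind it. *Supt6* had 186 and 151 in WT and 342 and 284 in KO promoter-proximal reads and was called up (0.89, adjusted p = 0.0245), also in its pausing index of 48.7 and 38.0 in WT and 103 and 83.8 in KO (1.11, adjusted p = 0.0462). *Ssrp1*, a subunit of the FACT chaperone, had 111 and 111 in WT and 117 and 191 in KO promoter-proximal and 488 and 616 in WT and 449 and 428 in KO gene body reads. KO2 alone was clearly above WT at the promoter, and neither change was called (0.42, adjusted p = 0.315 and -0.32, adjusted p = 0.0848). *Supt16*, the other FACT subunit, changed by 0.58 and -0.20 in the 2 regions.

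The remaining CTD kinases differed in level. *Cdk12*, which phosphorylates the CTD during elongation, had 1605 and 1456 in WT and 3033 and 2753 in KO promoter-proximal reads, nearly 2-fold more in KO with no overlap (0.92, adjusted p = 0.00654), and its pausing index was 470.5 and 455 in WT and 1017 and 993 in KO (1.12, adjusted p = 0.0271). *Cdk7*, the kinase of TFIIH, had 129.6 and 104 in WT and 177 and 213 in KO promoter-proximal reads (0.74, adjusted p = 0.0753) and 1909 and 2082 in WT and 1979 and 1745 in KO gene body reads (-0.10, adjusted p = 0.514), with no call in either region.

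Other genes of the transcription machinery were counted in the same way, and no difference between these lists was tested. Of 30 active general transcription factor genes, 6 (20.0%, against 25.8% of all active genes) were called up at the promoter. In the gene body none was called up (against 10.4%) and 1 was called down (3.33%, against 11.4%), with a median gene body change of -0.20. That gene was *Gtf2a2*, a TFIIA subunit, with 1083 and 957 in WT and 696 and 522 in KO gene body reads (-0.75, adjusted p = 0.000134). Among 25 further pausing and elongation genes, 4 (16.0%) were called up at the promoter and 1 (4%, against 11.4% of active genes) was called down in the gene body. The latter was *Tcea3*, a tissue-restricted relative of the elongation factor TFIIS. Its gene body had 1005 and 946 in WT and 432 and 416 in KO reads (-1.20, adjusted p = 9.60e-08). Of 14 Integrator genes, 3 (21.4%) were called up at the promoter and none in the gene body by limma. There 2 were down at the adjusted p alone (14.3%, against 22.1% of active genes). Of 19 subunits of RNA polymerases I and III, 5 (26.3%) were called up at the promoter. *Crcp* (-0.76, adjusted p = 7.19e-06) and *Polr3g* (-0.69, adjusted p = 0.00122) were called down in the gene body (10.5%, against 11.4% of active genes).

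The list of 2282 enhancers, found by the authors in the reads pooled over the 4 libraries, carries no value per library. An enhancer had a member as its closest gene for 5 of the 67 active members (7.46%, against 10.9% of active genes), namely *Aff1*, *Larp7*, *Med14*, *Nelfa* and *Polr2h*. The enhancer of *Aff1* (chr5:103691540-103694414) spans the RefSeq start of *Aff1* at 103692362. An enhancer and an alternative start of this gene cannot be told apart there. Within 50 kb, 3 members were listed (4.48% against 9.83%), which were *Med11*, *Nelfa* and *Nelfb*. *Nelfa* was linked by both rules to 1 enhancer (chr5:33953533-33959952, mm10), at 17275 bp. Chromatin contacts in the 4DGenome database linked 51 members (76.1%) to a listed enhancer, close to the 75.8% of active genes.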

How the data were processed

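PRO-seq of 4 libraries (2 WT, 2 KO) was analyzed. The authors trimmed the reads with cutadapt, aligned them to mm10 with Bowtie2, removed reads of ribosomal RNA or low mapping quality, and counted them per region with NRSA. The deposited values of WT2 are read counts, as its factor was 1, and those of the other libraries are a normalized signal that the authors obtained by multiplying counts by 1.06 to 1.52. Dividing by the factors gave whole reads (within 0.001) for 100% of values.

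The members and gene lists were chosen with earlier results of these data known. Each symbol was represented by its transcript of highest mean promoter-proximal signal. The activity cutoff of the study was applied on the deposited scale. limma 3.58.1 (trend, empirical Bayes, no block, R 4.3.3) was used with a pseudocount of 1, because the deposited values are normalized. Its prior degrees of freedom were infinite for promoter-proximal values and pausing indices, so a gene's own spread had no weight there, and 20.6 for gene bodies. The study's test of the pausing index, which needs read counts per stratum, was replaced by limma. Alternatives were count models on recovered reads (edgeR 4.0.16, DESeq2 1.42.0), changed pseudocounts, filters, scalings and transcripts, omission of single libraries, and a block for the replicate number. On simulated data with 12705 genes, limma recovered 97% of 2-fold changes in gene bodies but 2% at promoters. Of 4-fold changes at promoters it recovered 35%. There edgeR recovered 35% of 2-fold and 87% of 4-fold changes, and DESeq2 21% and 73%. Only 200 genes were changed in these data, while 3282 active genes were called up at promoters in the livers. Recovery with that many changed genes was not tested. Library values are given for a list of members fixed by name, for every member called in the gene body or pausing index, and for the 6 largest promoter-proximal calls without overlap. Promoter windows, gene positions and overlapping transcripts came from RefSeq and GENCODE on GRCm38. SDs measure the spread between libraries. Standard errors at promoters and in the pausing index come from a trend fitted across genes. Those of gene bodies also use the gene's own spread. Depth was 16628518 to 26190040 reads on genes. Deposited enhancer positions were used as given.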

Additional observations from a re-analysis of the deposited data

How the results depend on the processing

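Scaling within each region, which sets the typical gene near 0, removed the promoter-proximal rises. With median-of-ratios or TMM scaling within each region, 0 members were up and 1 (*Ell2*, 1.49%) was down at the promoter (4.99% to 5.02% and 7.41% to 7.46% of active genes), the median change was 0.050, the gene body median was -0.11, and 0 members were called in the pausing index, whose median was 0.13. With gene body factors for both regions, 16 members (23.9%, against 23.8% of active genes) were up at the promoter, at a median of 0.70. In the pausing index 13 (19.4%, against 12.3%) were up, and the gene body median was -0.11. With no filter on activity, which adds genes with few reads, 0 members and 0% of all genes tested were up at the promoter or in the pausing index, 1 of 68 was down in the gene body (against 2.85% of all genes), and the gene body median lay -0.19 from that of all genes. A pseudocount of 0.1 gave 8 calls in the pausing index (11.9%, against 8.91%), DESeq2 gave 1 fall in the gene body (against 10.9% of active genes), and no threshold on the fold change gave 9. Leaving out each replicate gave 0 to 20 promoter-proximal rises, 1 to 3 gene body falls with medians of -0.22 to -0.12, and 0 to 39 rises in the pausing index. For the promoter, the 0 came without WT2 or KO2 and the 20 without KO1. The cause was not tested. Median promoter-proximal changes were above 0 and median gene body changes below 0 under all alternatives tried, and none of the named genes' called changes turned its sign.

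The labels do not say that equal replicate numbers mark pairs, and, after subtraction of group means, WT1 and KO1 correlated across genes at -0.105 at promoters and 0.0189 in gene bodies. A replicate block gave 9 promoter-proximal rises (13.4%, against 13.9% of active genes), 1 rise in the pausing index (*Polr2b*; 1.49%, against 1.46%) and 2 gene body falls (2.99%, against 11.4%). Crossed pairing, chosen after seeing the data, gave 29 (43.3%, against 38.3%), 32 (47.8%, against 32.3%) and 2 (2.99%, against 11.5%). The 60 members under the listed symbols, a set also chosen later, held 59 active ones. Of these, 15 (25.4%, against 25.8% of active genes) were up at the promoter and 11 (18.6%, against 12.4%) in the pausing index. In the gene body 2 (3.39%, against 11.4%) were down.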
